A study of Mus musculus with 2 samples.

Results

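The cytosolic ribosomal protein genes of mouse embryonic stem cells were examined: 82 protein-coding genes, of 47643 gene entries listed in the count files, whose symbols follow the Rpl and Rps naming scheme in GENCODE M21, an annotation of the GRCm38 build. They comprised 51 genes of the large subunit and 31 of the small subunit. Of these, 76 were the main copies (46 large, 30 small) and 6 were paralogs, that is, further genes for a variant of the same protein (Rpl3l, Rpl7l1, Rpl10l, Rpl22l1, Rpl39l and Rps27l). The naming rule used no measured value. Rpsa, Fau, Rpl36al and Rps27rt belong to the same functional class but carry names outside the rule, and are described separately. Every library came from the E14 line, mouse embryonic stem cells of the 129/Ola background, with genotype AGO1&AGO2 double KO, that is, labelled as lacking 2 of the Argonaute proteins that bind microRNAs. The group held 2 polyA libraries, called replicate 1 and replicate 2. Culture was on 0.2% gelatine with 15% serum and LIF, the self-renewal cytokine, at 100 U/mL, and 1 ug of Trizol-extracted total RNA went into each reverse-stranded TruSeq library. Whether separate cultures or clones were used is not stated in the labels, so differences between the libraries may be technical. Unmodified cells were not analysed here, and nothing below is a knockout effect.

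Ribosomal proteins and ribosomal RNA build the small subunit, which reads the messenger RNA, and the large subunit, which joins amino acids. Each protein is present once in a ribosome, with the stalk proteins an exception, and proliferating cells such as embryonic stem cells make them in large amounts. Many of their messenger RNAs begin with a run of pyrimidines at the cap, the 5′ terminal oligopyrimidine tract, through which growth signals control their translation.

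Total counts were 34798975 in replicate 1 and 29789560 in replicate 2. The row of Ago1 held 2463 and 4205 counts and that of Ago2 held 4304 and 3839, and counts summed over a whole gene do not check the genotype. The label of the cell type was checked against markers: 8 of 8 embryonic stem cell genes were expressed, led by Dppa5a and Pou5f1. Of 8 fibroblast feeder genes, Lum, Col3a1 and Postn had no count in either library, and Thy1 and Col1a1 reached 1 CPM (a gene's counts scaled to a common library total). Thy1 was well above that level, at 24.7 and 23.1 CPM, and Col1a1 was at 2.04 and 3.05 CPM. Counts of the main copies differed between the libraries beyond sampling noise, with a mean chi-square of 58.2 per degree of freedom, so both were kept as separate samples.

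All 82 genes reached 1 CPM in both libraries, and 81 reached 5 CPM, Rpl3l being the exception. Together they took 7.23% of counts in replicate 1 (95% exact Clopper-Pearson limits of 7.22 and 7.23%) and 6.98% in replicate 2 (limits 6.97 and 6.99%), and 7.10% ± 0.175 on average (SD, n = 2). The intervals cover counting error only, and they did not overlap between the libraries. Levels of different genes were compared in TPM, a share of transcripts that divides counts by transcript length. On this scale the genes made up 16.3% of all transcripts in replicate 1 and 15.7% in replicate 2 (SD 0.431, n = 2). Of the 50 genes with the highest TPM in these libraries 19 were ribosomal protein genes, of the top 100 they were 49, and of the top 200 they were 72. The 6 paralogs added only 0.0638 and 0.0635% of counts.

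**Figure D1:**
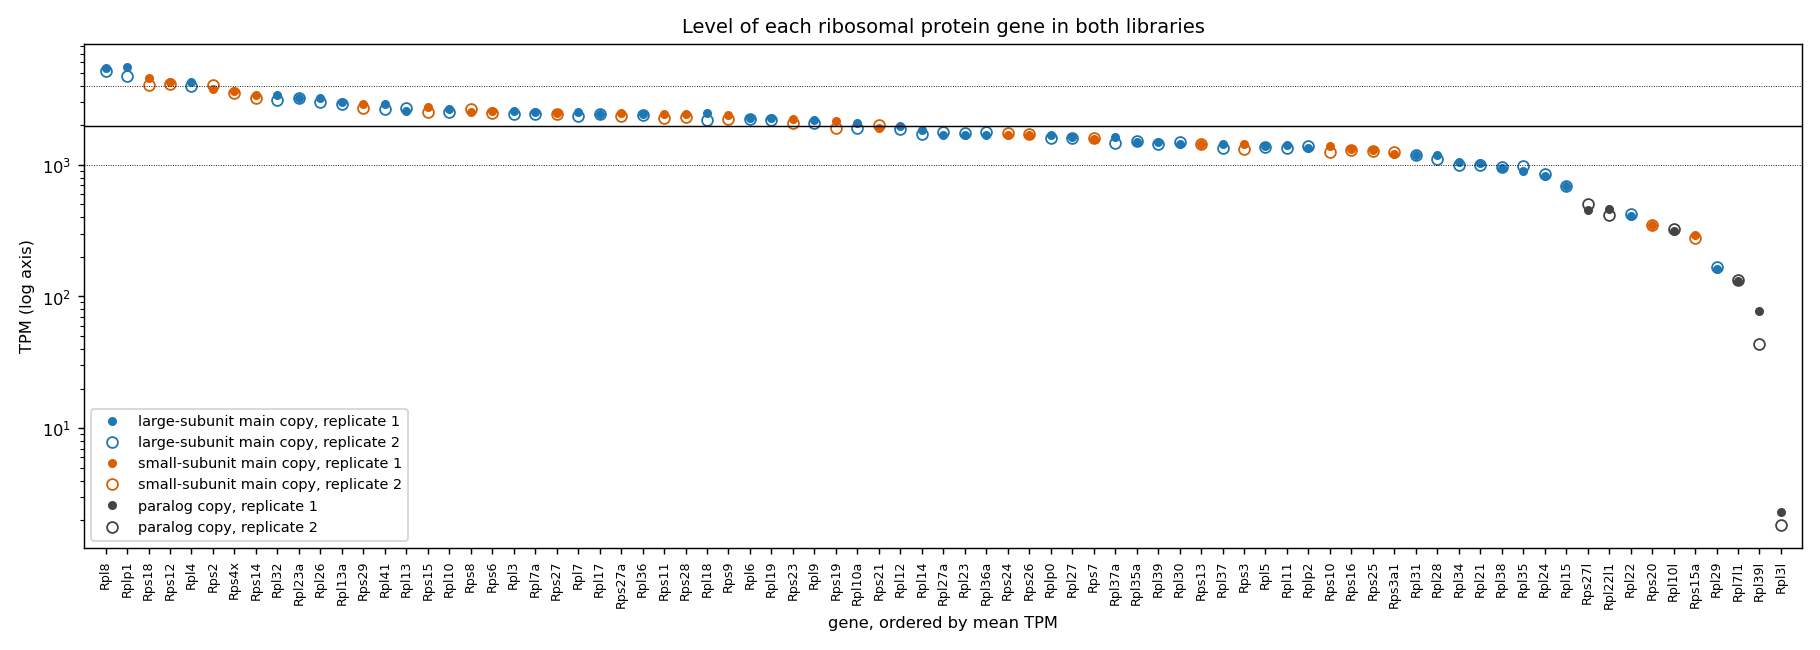
TPM on a log axis for 79 of the 82 genes, ordered by mean, with replicate 1 filled and replicate 2 open. The solid line is the median of the main copies and the dotted lines are 2-fold above and below it, and most main copies (63 of 76 before 3 were left out of the plot) lie between them, with the paralogs at the low end.

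The main copies stood close together in level. Their median was 2024 TPM in replicate 1 and 1911 in replicate 2 (1967 ± 80.4, SD, n = 2), and the 10th to 90th percentile ran from 993 to 3402 and from 982 to 3207 TPM. Of 76, 63 lay within 2-fold of the median, 5 above and 8 below. The SD over genes of log2 TPM was 0.89 and 0.87 among the main copies, against 1.99 and 2.01 among the 12530 protein-coding genes at 1 CPM in both libraries, whose median was 18.3 and 18.2 TPM. This spread is over genes, which are no replicates. It was also set by the length chosen for each gene, and moved both ways from its mean of 0.88. The spread was 0.97 with all annotated exons merged. With the length of sequence not shared with other genes the spread was 1.30, over only the 65 main copies that have such a length. It was 0.73 with each gene's shortest principal transcript, a setting added after the data were seen.

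The 5′ ends of the transcripts are shown for 5 of the 8 highest members and for paralogs and their main copies, because a pyrimidine tract at the cap is the feature known of this family. Each line gives 30 bases, 15 before to 15 after the RefSeq start in GRCm38.p6, with the longest tract that begins with C in capitals. Windows lie at chr17:33955651-33955680 (minus strand) for Rps18, chr10:23787195-23787224 (minus) for Rps12, chr9:64173372-64173401 (plus) for Rpl4, chr17:24720048-24720077 (plus) for Rps2, chrX:102189377-102189406 (minus) for Rps4x, chr3:90213634-90213663 (minus) for Rps27, chr9:66946071-66946100 (plus) for Rps27l, chrX:37085208-37085237 (minus) for Rpl39, chr16:10170213-10170242 (plus) for Rpl39l, chrX:74270801-74270830 (plus) for Rpl10 and chr12:66284387-66284416 (minus) for Rpl10l.
Rps18: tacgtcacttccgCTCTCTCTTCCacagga
Rps12: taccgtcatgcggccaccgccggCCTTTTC
Rpl4: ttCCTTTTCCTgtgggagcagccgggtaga
Rps2: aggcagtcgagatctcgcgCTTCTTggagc
Rps4x: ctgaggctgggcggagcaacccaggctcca
Rps27: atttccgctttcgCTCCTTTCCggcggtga
Rps27l: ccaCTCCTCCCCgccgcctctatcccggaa
Rpl39: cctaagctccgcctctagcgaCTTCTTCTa
Rpl39l: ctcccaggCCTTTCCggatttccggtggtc
Rpl10: gttgttacagtggaagataggccgcctata
Rpl10l: tttggCCTCCattttgcggctggcggtggg

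RefSeq gave a promoter, 250 bases before to 50 after the start, for 62 of the 82 genes. A tract, counted as a C on the annotated start base followed by at least 4 pyrimidines, was found in 13 of 62 (21%). Among 17491 genes with a promoter it was 2.67%. Such a tract may also reach back before the start, as in Rps18. When the tract could begin anywhere from 5 bases before to 20 after the start, 41 of 62 (66.1%) had one, against 38.8% of genes. Within the promoter, on either strand, CCGGAAG, a core of ETS factor sites, was found in 25 of 62 (40.3% against 12.9%). AAGATGGC, a core of YY1 sites, was in 6 (9.68% against 3.57%), and GGGCGG, the GC box, in 38 (61.3% against 49.2%). TATAAA lay 40 to 20 bases before the start on the coding strand in 1 (1.61% against 3.06%). These are matches of letters, described without a test, and motifs may overlap. The highest members differed among themselves. In Rps18 a tract of 11 bases spanned the annotated start, and in Rpl4 a tract of 9 bases ended before it. In Rps2 a shorter tract of 6 bases began after the start. In Rps12 a tract also began after it and filled the last 7 bases shown, so its full length is not given. Rps4x and Rpl10 had no tract, which says only that these letters are absent around those annotated starts.

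Among large-subunit genes, Rpl8 and Rplp1 were highest. Rpl8, which encodes a core protein at the peptidyl transferase centre, was at 5406 and 5133 TPM (rank 11 of all genes), and Rplp1, a stalk protein, at 5541 and 4727 TPM. The values of these 2 genes overlapped between libraries, and both lay above every other member. The stalk binds translation factors and holds Rplp0 at its base with paired Rplp1 and Rplp2. Rplp0 was at 1672 and 1600 TPM and Rplp2 at 1352 and 1384, so that Rplp1 stood above its partners in both libraries. On a transcript of 421 bases in place of 964, Rplp2 moved from rank 59 to 12 among the members.

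Rpl5 and Rpl11 bind 5S ribosomal RNA as a particle that also blocks Mdm2, the inhibitor of p53. Rpl5 was at 1380 and 1364 TPM and Rpl11 at 1402 and 1335 TPM, and these ranges overlapped. Around the tunnel through which the new protein leaves, Rpl4 was at 4236 and 3982 TPM, Rpl17 at 2429 and 2412, and Rpl39 at 1502 and 1445. These 3 genes kept their order in both libraries.

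In the small subunit, Rps18 (4553 and 4049 TPM) and Rps12 (4281 and 4091 TPM) were highest, and their ranges overlapped. Rps2 (3785 and 4062 TPM) and Rps3 (1439 and 1311 TPM) line the entry of the messenger RNA path. Rps3a1 (1214 and 1255 TPM), Rps26 (1677 and 1719 TPM) and Rps28 (2437 and 2293 TPM) lie towards its exit, and Rps10 (1386 and 1246 TPM) sits at the beak. Rps4x was at 3615 and 3501 TPM and Rps14 at 3417 and 3198 TPM, which completed the 8 highest members with Rpl4. With all annotated exons merged as the length, Rps18 moved from rank 3 to 32 among the members, Rps12 from 4 to 21 and Rps14 from 8 to 37. Rps27a, made as a fusion to ubiquitin, was at 2458 and 2364 TPM.

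The median of the small-subunit main copies was 2405 TPM in replicate 1 and 2235 in replicate 2, and that of the large-subunit main copies 1687 and 1766. The difference of median log2 TPM, large minus small, was -0.51 and -0.34 (-0.43 ± 0.12, SD, n = 2). It kept its sign with every length used, and shrank to -0.21 with the shortest principal transcripts. With unshared sequence as the length, over 65 main copies only, it was -0.20.

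Mutations of ribosomal protein genes cause Diamond-Blackfan anaemia in people, a failure of red cell formation. The 9 mouse genes of that list had a median of 1566 TPM in replicate 1 and 1611 in replicate 2, within the range of the main copies. Rps19, the most frequently mutated, was at 2137 and 1918 TPM, Rps24 at 1684 and 1740, Rps7 at 1566 and 1611, and Rpl35a at 1496 and 1519.

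The lowest main copies were Rpl29, Rps15a, Rps20 and Rpl22. Rpl29 was at 162 and 168 TPM from 2185 and 1943 counts, and 66.8% of its 50-base stretches also occur in transcripts of other genes, 81 of them pseudogenes. The pseudogenes in the files that share at least 50 stretches with it, and share more with it than with other members, held 9333 and 7445 counts, more than Rpl29 itself (427 and 383% of its counts). Gm8210 alone held 6760 and 5354. How much of the low level of Rpl29 goes with reads placed in these copies was not tested. Rps15a was at 293 and 279 TPM with a transcript of 5179 bases; with a transcript of 640 bases its rank among the members moved from 78 to 36. Rpl22 was at 411 and 426 TPM on 2051 bases and moved from rank 75 to 49 on 474 bases. Rps20 was at 348 and 351 TPM on 3706 bases, which is also its shortest principal transcript. With merged exons as the length Rps15a was at rank 76 and Rpl22 at rank 72, so of these lengths only the shortest transcript took them from the low end. Rpl29 stayed there (rank 79, 80 with the shortest and 79 with merged exons).

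The paralogs covered a wide range. Rpl3l, the muscle form of Rpl3, had 59 and 40 counts, or 2.33 and 1.84 TPM. That was 0.0902 and 0.0752% of the TPM of Rpl3 (0.0827% ± 0.0106, SD, n = 2), the lowest level of any member. This percentage was 0.163 with merged exons and 0.0119 with unshared sequence as the length. None of the 50-base stretches of Rpl3l was found in another gene, whereas 85.6% of those of Rpl3 were.

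Rpl22l1 and Rpl22, which encode alternative forms of the same RNA-binding protein, were near each other in level. Rpl22l1 was at 461 and 418 TPM and Rpl22 at 411 and 426, so that the paralog was at 112 and 98.3% of the main copy (105% ± 9.68, SD, n = 2). The value turned on length: it was 24.3% with the shortest principal transcripts, 41.4% with merged exons and 249.8% with unshared sequence, so that which copy was higher depended on the length used. As a share of the pair's counts Rpl22l1 took 23.2% in replicate 1 and 20.9% in replicate 2.

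Rpl39l, a paralog of the exit tunnel protein Rpl39 known from spermatogenic cells, was at 77.5 TPM in replicate 1 and 43.5 in replicate 2. Rpl39, on the X chromosome, was at 1502 and 1445, so the paralog made up 5.16 and 3.01% (4.09% ± 1.52, SD, n = 2). Of the pair's counts Rpl39l held 1151 (6.36%, 95% Clopper-Pearson interval 6.01 to 6.72%) and 553 (3.81%, 3.51 to 4.14%). The percentage of TPM was 9.28 with merged exons. The intervals did not overlap, and Rpl39l has no 50-base stretch in another gene.

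Rpl10l, an intronless copy of the X-linked Rpl10 that acts in male meiosis, was at 313 and 323 TPM, or 11.8 and 12.7% of Rpl10 (12.2% ± 0.681, SD, n = 2; 31.5% with merged exons). While 92.1% of the stretches of Rpl10 recur in other genes, 7.60% of those of Rpl10l do. Rpl7l1, a relative of Rpl7, was at 130 and 133 TPM, or 5.14 and 5.64% of Rpl7 (5.39% ± 0.353, SD, n = 2). That percentage was 9.29 with merged exons, 10.7 with the shortest transcripts and 2.71 with unshared sequence. Rps27l, a p53 target, was at 450 and 507 TPM, or 18.1 and 20.7% of Rps27 (19.4% ± 1.88, SD, n = 2; 35.9% with merged exons). Nearly all stretches of Rps27 (98.6%) recur elsewhere, and its own counts are uncertain for that reason.

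Further copies carry names or gene types outside the rule. Rps4l, annotated as a transcribed processed pseudogene, had 15172 and 12377 counts and 24.1 and 23.8% of the TPM of Rps4x, which became 40.0% with merged exons and 7.82% with unshared sequence. Rpl36al stood at 35.1 and 33.3% of Rpl36a, and Rps27rt at 0.903 and 0.874% of Rps27 (2.69% with merged exons). Rps12l1, a processed pseudogene all of whose stretches recur in other genes, had 77 and 64 counts. Rpsa was at 2846 and 2670 TPM, inside the range of the main copies, and Fau, the precursor of Rps30, at 1245 and 1077.

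**Figure D2:**
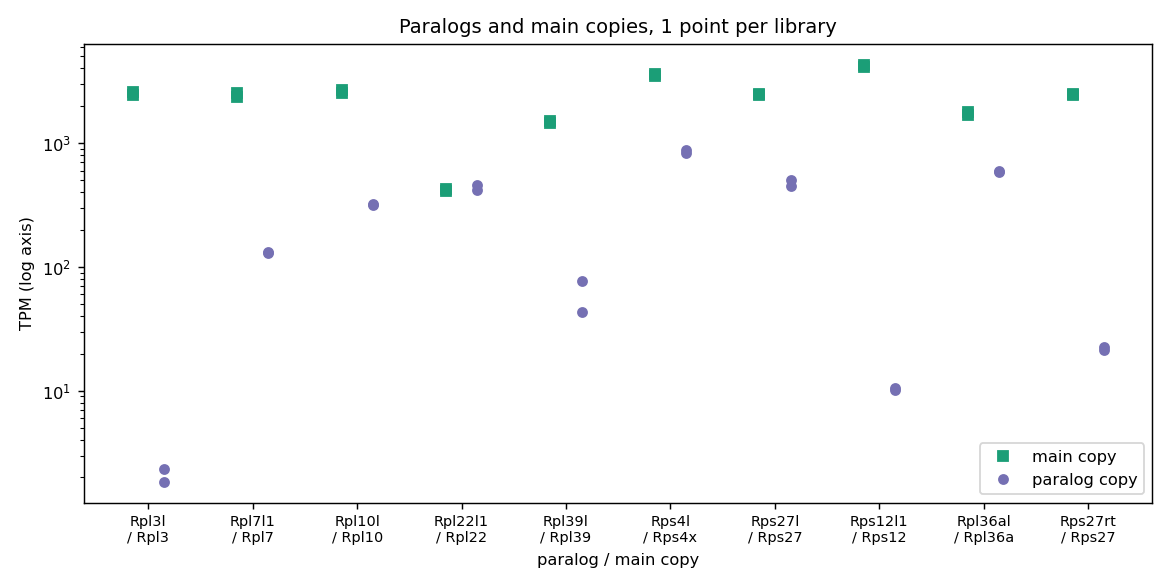
TPM on a log axis of each paralog (circles) and its main copy (squares), with 1 point per library. Rpl22l1 and Rpl22 overlap, all other paralogs lie below their main copies in both libraries on this length, and the points of Rpl39l are the farthest apart.

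The libraries were then set against each other, gene by gene, with a two-sided exact binomial test on counts and Benjamini-Hochberg adjustment over 19078 genes. This test compares these 2 libraries, not conditions, and weighs differences against counting error only. Of the 82 genes 61 passed (74.4%), 47 of them lower in replicate 2 and 14 higher, against 23.9% of all genes tested (12.9% lower, 11.0% higher). At high depth small differences pass: of the 3597 genes with at least as many counts as the lowest main copy, 50.7% passed, 22.5% lower and 28.2% higher. That set has a floor of 4128 counts over both libraries and was not matched to the members in depth. The median log2 ratio of replicate 2 over replicate 1 was -0.05 over the members and -0.01 over all genes tested. It was 0.02 over the genes at or above that floor. Of the members, 59 lay below 0 and 23 above, and of all genes tested 51.9% lay below 0.

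Differences were small in size. Of 82 genes 70 agreed within 1.1-fold between the libraries and 80 within 1.2-fold, and all 76 main copies were within 1.2-fold. The SD over genes of the log2 ratio was 0.08 among main copies. It was 0.14 among genes at or above the count floor, which are not matched in depth. Large-subunit genes were lower in replicate 2 in 29 cases, higher in 7 and not called in 15. Small-subunit genes were lower in 18, higher in 7 and not called in 6. Of all genes tested 12.9% were called lower and 11.0% higher, and of those at or above the count floor 22.5% and 28.2%.

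By edgeR's exact test, with a spread estimated from both libraries, 0.456% of all genes and 1 member, Rpl39l, passed, which for genes lower in replicate 2 compares with 0.341% of all genes. No main copy passed by this test, adjusted, while 58 passed the binomial test. By edgeR's exact test 0 main copies had an unadjusted p under 0.05, beside 856 of all 19078 genes tested. Since that spread holds the differences it judges, this test calls few genes.

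Rpl39l differed most between the libraries. Its log2 ratio was -0.83, with a counting SE of 0.07; the adjusted p was 1.98e-28 by the exact binomial test, and edgeR's exact test gave 0.0121. Its main copy Rpl39 was at -0.06 in the same libraries. Among the main copies most lowered in replicate 2 were Rplp1 (-0.23), Rps18 (-0.17), Rpl18 (-0.17) and Rps19 (-0.16), each past the binomial threshold.

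The members most raised in replicate 2 were Rps27l (0.17, adjusted p 2.63e-06 by the exact binomial test) and the main copies Rpl35 (0.10), Rps2 (0.10), Rpl13 (0.09), Rpl36a (0.08) and Rpl27a (0.08). In the Rpl22 pair, Rpl22l1 was at -0.14 (adjusted p 9.24e-05) and Rpl22 at 0.05 (adjusted p 0.0314), both by the exact binomial test. After removal of the GC and length trend Rpl22 (adjusted p 0.122, exact binomial test) and Rpl36a (adjusted p 0.221) were no longer called, and edgeR called none of these 3 genes. Rpl3l, at 59 and 40 counts, was not called (adjusted p 0.529, exact binomial test), and at this depth a difference of its size was not detectable.

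**Figure D3:**
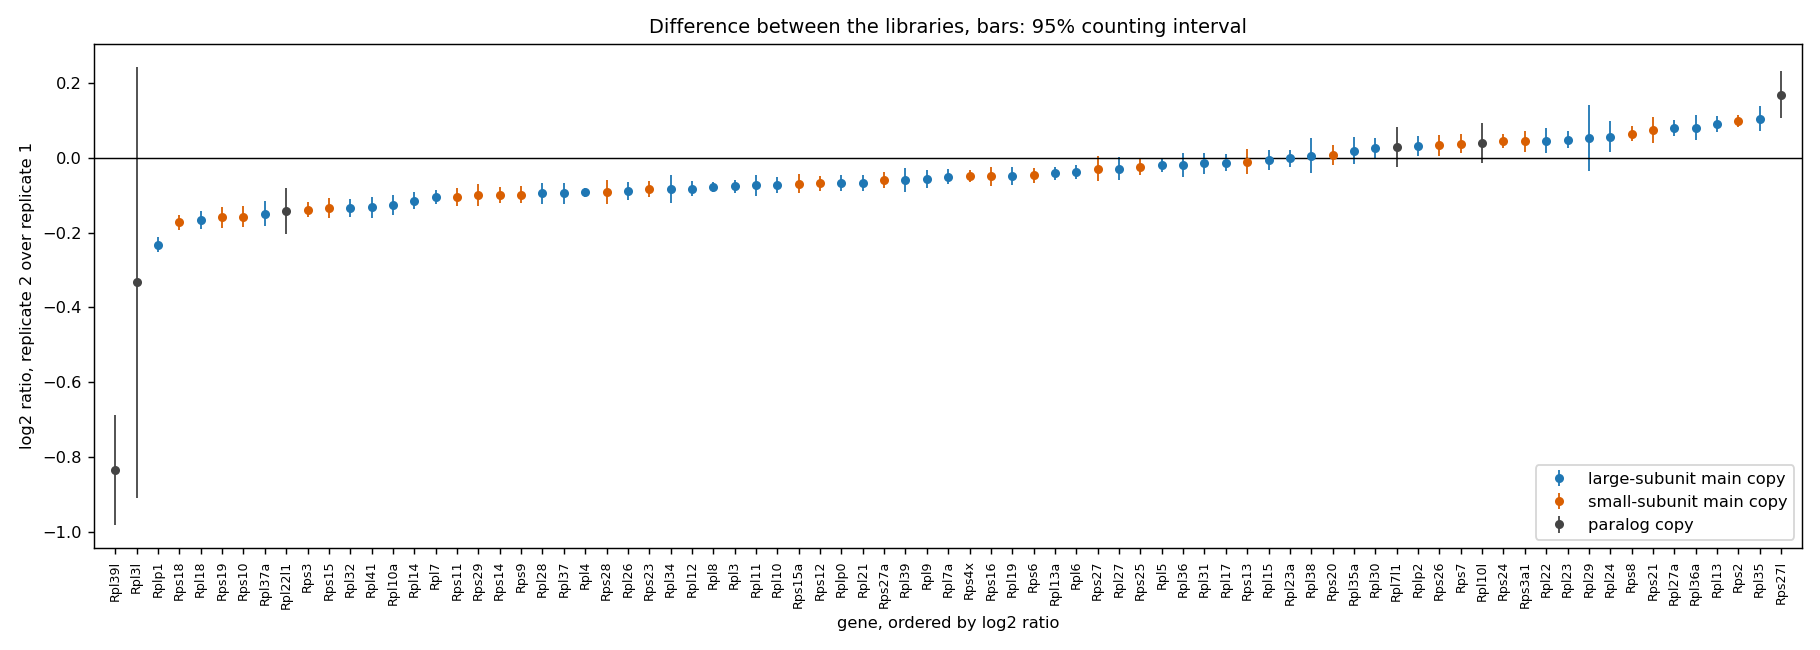
Log2 ratio of replicate 2 over replicate 1 for 79 of the 82 genes, ordered, with bars of 95% counting intervals. Rpl39l stands apart at -0.83, Rpl3l has the widest bar, and all main copies shown lie between -0.23 and 0.10.

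**Figure D4:**
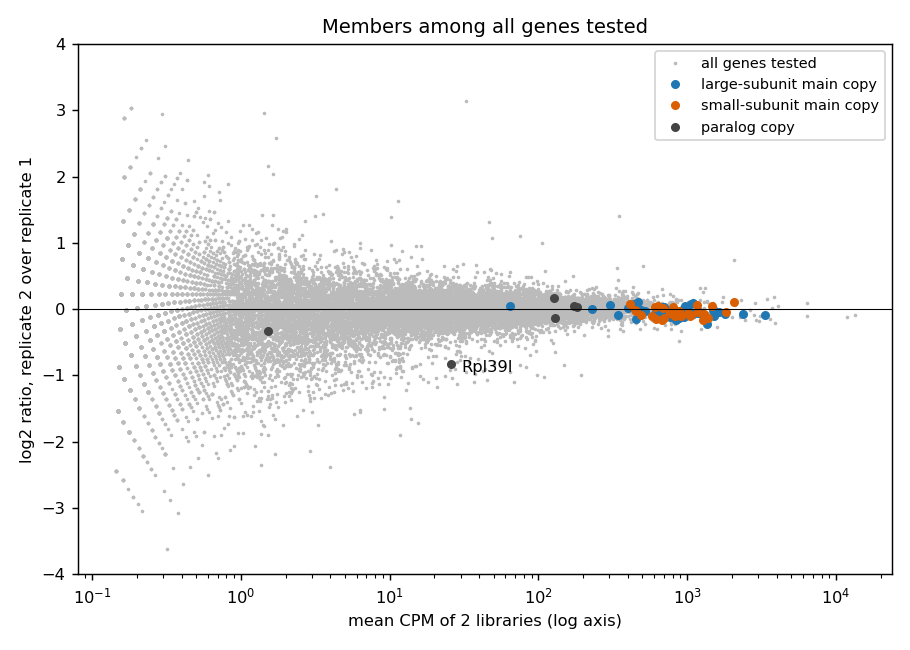
Log2 ratio of replicate 2 over replicate 1 against mean CPM (log axis) for all 19078 genes tested in grey, with 79 of the 82 members in colour. The main copies form a narrow band at high CPM around the median of -0.05, and Rpl39l lies below it.

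The ratio tended to be lower at higher GC content, weakly among the members. Over the 76 main copies, genes that share libraries and depth range, the Spearman correlation of GC content with the log2 ratio was -0.22. It was -0.43 over all genes with at least the counts of the lowest main copy, and -0.19 over all genes tested. Over all 82 members the Spearman correlation was -0.19 and the Pearson correlation -0.015. The 25 main copies with the lowest GC content had a median ratio of -0.02, the middle 26 -0.06 and the 25 highest -0.08. After removal of a GC and length trend fitted over all genes, 60 members were called, 47 lower and 13 higher, with a median of -0.05. Of all genes tested 20.7% were called in the same way.

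Ribosomal protein genes share much of their sequence with other genes, mainly processed pseudogenes, which limits where a read can be placed. The median share of 50-base stretches found in transcripts of other, non-overlapping genes was 46.7% over members and 49.2% over main copies. Over expressed protein-coding genes the median was 0 by a broader measure, which took 1 in 16 stretches and also counted overlapping genes. The share exceeded 20% in 69 of 82 members, against 13.3% of 12528 expressed protein-coding genes by the broader measure. It was 0 in 3 members, Rpl3l and Rpl39l among them. Main copies over 50% shared (37 genes) had a median of 2453 and 2364 TPM, and the other 39 had 1502 and 1459. Over main copies the Spearman correlation of sharing with TPM was 0.37, a description over 76 genes that also differ in transcript length. How the authors placed reads that match several genes is not given in the sources used here. Separately counted, and partly the same genes, 10 members had over 20% of their stretches in an annotated gene that overlaps them, among them Rpl5, Rps10, Rpl35 and Rpl22l1, and their counts may include or lose reads of that neighbour.

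**Figure D5:**
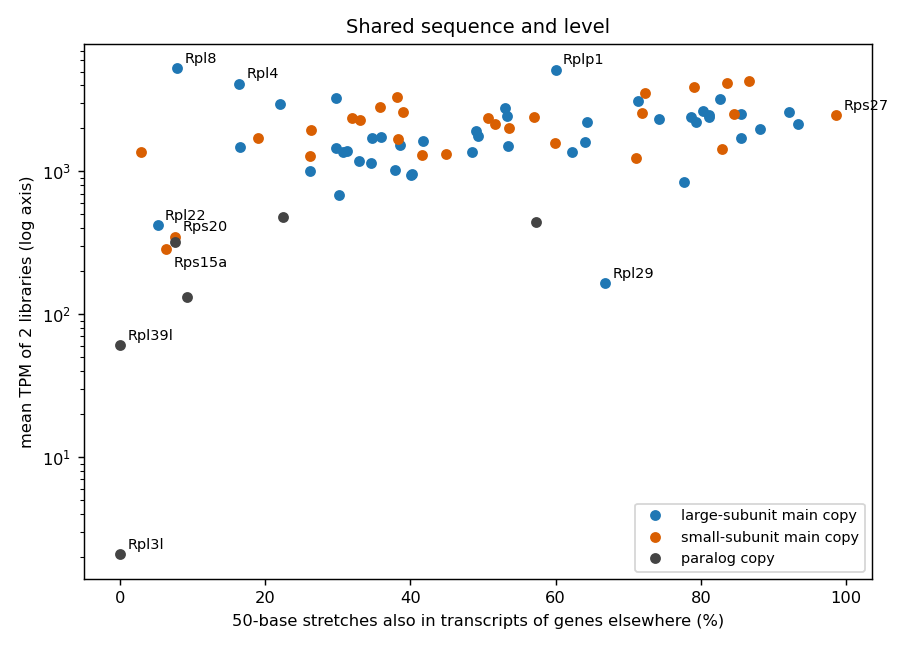
Mean TPM (log axis) of 79 of the 82 members against the percentage of their 50-base stretches that occur in transcripts of other genes. Members span from 0 (Rpl3l and Rpl39l) to 98.6% (Rps27), and Rpl29 is low in level and high in sharing.

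Pseudogenes held a small part of the counts over all members, but not for each member. The 259 entries named as pseudogenes of ribosomal proteins (-ps) held 40215 and 33318 counts, 0.116 and 0.112% of the libraries and 1.60% of the members' counts in each. Among all pseudogenes sharing at least 50 stretches with a member, 466 were in the files, holding 5.91 and 5.81% of the members' counts, and 210 reached 1 CPM in both libraries. The most counted were Gm8730, a copy of Rplp0, with 24776 and 19222 counts, Rpl3-ps1 with 14269 and 11943, and Rps3a3 with 13291 and 11093. Assigned to the member each shares most with, pseudogenes in the files fell to 72 members, with a median of 2.35 and 2.33% of the member's own counts. They exceeded 10% in both libraries for 10 members. After Rpl29, the highest were Rps3a1, whose copies held 96.4 and 90.4% of its counts, and Rplp0, at 79.1 and 75.2%. The levels given above for these 3 genes leave out those counts.

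Of 82 members, 29 (35.4%) have a small nucleolar RNA gene, whose product guides modification of ribosomal RNA, within their span, against 1.72% of expressed protein-coding genes. The members hold 55 such genes, with the most, 5, in Rpl4. The members lie on 19 chromosomes, with 14 on chromosome 7 and 4 on the X chromosome (Rps4x, Rpl10, Rpl36a and Rpl39).

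Genes that make or control ribosomes were compared on the same terms. Of 42 ribosome assembly factors 41 were found, with a median of 101 and 107 TPM, and 19 passed the binomial test, 16 higher and 3 lower in replicate 2, with a median log2 ratio of 0.06. Of all genes tested 23.9% passed (11.0% higher, 12.9% lower), and 50.7% of those with at least the counts of the lowest main copy. Npm1 (3088 and 3064 TPM), a nucleolar chaperone, and Ncl (636 and 678 TPM), nucleolin, were highest in TPM, and Nmd3 and Wdr12 lowest. The order rests on the transcripts chosen, of 8202 bases for Ncl, 9135 for Nmd3 and 10012 for Wdr12. In CPM, Ncl (2766 and 2945) was above Npm1 (2673 and 2650). Riok1 (32.8 and 33.6 CPM) was below Nmd3 (89.6 and 104.9) and Wdr12 (82.3 and 92.0). Of 8 genes listed as chaperones of ribosomal proteins 1, Nap1l1, passed, higher in replicate 2, beside 23.9% of all genes called and 11.0% called higher. Of 10 genes that control ribosomal protein synthesis, Myc, Mycn, Yy1 and Larp4 were higher and Eif4ebp1 lower. Mycn moved by 0.30 and Myc by 0.42. These 5 of 10 also stand beside the 23.9% of all genes and the 50.7% of those at or above that count floor. By edgeR's exact test 0 genes of these 3 lists passed, beside 0.456% of all genes. An unadjusted p under 0.05 by this test was reached by 1 assembly factor, 1 control gene and 0 chaperones. Over all 19078 genes tested, 856 reached it.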

How the data were processed

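Each of the 2 libraries had a deposited file of raw counts, whole numbers of reads per Ensembl gene, made by the authors. The submitters' processing notes name STAR 2.4.2a and mm10, the GRCm38 build. Not given in the sources used here are the counting tool, its strand setting, the annotation release and the rule for reads that map to several genes. Symbols, positions and lengths came from GENCODE M21; 419 gene IDs had no match and held 0.116 and 0.124% of counts. Length was that of each gene's principal transcript, and TPM was computed from it. A match to RefSeq was preferred only among transcripts of equal type and principal rank, so some chosen transcripts have none. Library sizes were scaled by TMM (0.999 and 1.00) in edgeR 4.0.16 with R 4.3.3; genes with at least 10 counts in total were tested with scipy 1.17.1, at a threshold of 0.05, and log2 ratios used a pseudocount of 0.5 counts. DESeq2 1.42.0 gave alternative size factors. Depth was 34798975 and 29789560 counts. The edgeR alternative used a trended dispersion from both libraries as 1 group, with a common biological coefficient of variation of 10.0%. Shared sequence was measured against M21 transcripts instead of the genome, because no genome sequence was used here. Scripts were tested on simulated counts.

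The members, lists and tests were chosen with earlier results of these data known. The named genes were the 8 highest and 8 lowest members by TPM, every paralog pair, every member called by edgeR, the 6 members with the largest ratio in each direction, the members with a listed role, and the 2 highest and lowest genes of other lists, of which only some are given; a few genes are not reported here by name and are left out of the plots, but stay in all counts and medians. Settings added after the data were seen are the shortest principal transcript and pseudogenes sharing at least 50 stretches.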

Additional observations from a re-analysis of the deposited data

How the results depend on the processing

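The counts of members called were near the main ones under DESeq2 size factors, library totals, other count filters and removal of GC and length trends. Members under 20% shared gave 9 of 13 called, 2 higher and 7 lower, with a median ratio of -0.069, since only those 13 were counted; edgeR's exact test gave 1 called, 0 higher and 1 lower. The share of counts was 7.57% with protein-coding, non-mitochondrial counts as denominator and 7.52% with sharing pseudogenes added. The median log2 TPM was 10.20 with merged exons, 11.88 with unshared length and 11.05 with the shortest transcript, from 10.94, and the spread 0.97, 1.30 and 0.73, from 0.88. Large minus small was -0.20 with unshared length and -0.21 with the shortest transcript. These values with unshared length cover 65 of the 76 main copies, so the set of genes changed along with the length. As percentages of the main copy with merged exons, Rpl3l was 0.163, Rpl7l1 9.29, Rpl10l 31.5, Rpl22l1 41.4, Rpl39l 9.28, Rps4l 40.0, Rps27l 35.9, Rps12l1 0.855, Rpl36al 45.6 and Rps27rt 2.69. With the shortest transcript, added after the data were seen, Rpl7l1 was 10.7, Rpl22l1 24.3, Rpl39l 5.98, Rps4l 28.6 and Rps12l1 0.208. With unshared length Rpl3l was 0.0119, Rpl7l1 2.71, Rpl22l1 249.8 and Rps4l 7.82; Rpl10l, Rps27l, Rps12l1, Rpl36al and Rps27rt gave no value, their main copies having under 100 unshared bases. With 100-base stretches, median sharing was 32.4%. Pseudogene counts were 0.417% with all sharing pseudogenes. No paired analysis was possible because the libraries form 1 group.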
